A study of Mus musculus with 21 samples.

Results

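The comparison described here asks whether bisphenol A (BPA) had the same effect on testis RNA in mice without the bile acid receptor FXRα as in wild-type mice. For each gene it is the BPA minus vehicle difference in knockout (KO) testes less the same difference in wild-type (WT) testes, on the log2 scale, and it is called the interaction below. A positive interaction means that BPA testes stood higher against vehicle testes in KO than in WT. The comparison used 14 of the 21 libraries of the series: 3 from KO mice given BPA, 3 from KO mice given vehicle, 4 from WT mice given BPA and 4 from WT mice given vehicle. All were taken by the labels alone. Of the 32643 genes in the deposited table, 20254 had enough reads to be tested.

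FXRα, encoded by Nr1h4, is a nuclear receptor that bile acids activate and that pairs with the retinoid X receptor on DNA. In liver and gut it holds bile acid synthesis in check, and in the testis it has been linked to steroid production by Leydig cells and to germ cell survival. BPA is a plastics monomer that binds estrogen receptors weakly and also acts on other nuclear receptors. The interaction of treatment and genotype is the usual way to ask whether a receptor is needed for, or alters, a response to a compound.

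The KO BPA group held animals T25, T83 and T117, labelled FXRalpha-/- and given BPA, and the KO vehicle group held T1, T90 and T110 of the same genotype. The WT BPA group was made up of T60, T75, T61 and T74, and the WT vehicle group of T66, T71, T79 and T81, and values of single animals are given in these orders. All were at postnatal day 10, and each library was made from the testis of an individual mouse. The strain of every animal is labelled as 50% 129sv and 50% C57Bl6, so single animals can carry different stretches of either strain, and the sources used here do not say which. Nor do they give the doses, the length of treatment, the litters or the way the Nr1h4 allele was made. KO and WT mice given stigmasterol, a plant sterol, make up the rest of the series. They entered the estimate of the spread between animals and are shown where a result turns on them.

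The 14 libraries held 38943327 to 61498855 counted reads, so 3 reads corresponded to 0.0484 to 0.0799 counts per 1000000 reads (CPM). Markers of Sertoli cells, the supporting cells of the tubules, summed to 10610 to 17190 CPM, so the defining cells of the labelled tissue were present in each library. Transcripts of liver and of epididymis, tissues outside the testis, were uneven. The liver list summed to 56.75 CPM in T25 of the KO BPA group, and to 1167 and 123.9 CPM in T61 and T75 of the WT BPA group, against 9.709 to 27.97 CPM in the other 11 libraries. Cdh16, a cadherin used here as the marker of epididymal RNA, was at 10 CPM or more in KO BPA animals T83 and T117, KO vehicle animals T1 and T110, WT BPA animals T60 and T75 and WT vehicle animal T81. Whole-testis RNA cannot tell fewer cells of a type from less RNA per cell.

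Nr1h4 (ENSMUSG00000047638, chromosome 10, 89454234 to 89533585, mm10) was measured first as the check of the genotype. It was at 0.343, 0.492 and 0.172 CPM in KO BPA testes, and at 0.221, 0.290 and 0.279 CPM in KO vehicle testes. It was at 0.371, 0.692, 0.868 and 0.241 CPM in WT BPA testes, and at 0.351, 0.626, 0.536 and 0.639 CPM in WT vehicle testes. The level was low in every group, the genotypes overlapped under BPA, and the deleted part of the gene is not known here, so the counts check the labels weakly. Its interaction was 0.34 ± 0.56 (SE) and did not pass the test (edgeR adjusted p = 0.882).

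The difference between BPA and vehicle testes was not the same in the genotypes at 3 genes, and all 3 lay within the major histocompatibility (H2) region of chromosome 17. The MHC class I gene H2-Q10 had a positive interaction, and the cytokine genes Lta and Ltb had negative ones. In each the larger difference was in KO testes: KO vehicle animals stood apart from the 3 other groups, and KO BPA animals lay at or near the level of WT animals. For Lta, KO BPA animals lay below the WT BPA animals, and WT testes had a difference of 0.75 (edgeR unadjusted p = 0.0342, adjusted p = 0.224). These 3 genes were 0.0148% of the genes tested at an adjusted p under 0.05 (edgeR quasi-likelihood test, Benjamini-Hochberg over all genes, two-sided). The same 3 genes passed for BPA against vehicle in KO testes, again 0.0148%. In WT testes 0 genes passed in edgeR (0%), where the smallest adjusted p was 0.0609, although 3798 genes (18.8%) had an unadjusted p under 0.05. DESeq2 called 1040 genes for BPA in WT testes and limma-voom 0, so the WT side of the interaction depended on the test.

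The promoters of the 3 genes are shown because the genes lie close together and had interactions of opposite sign. Each is the 300 bases that RefSeq places from 250 before to 50 after the gene start (GRCm38.p6, the assembly of mm10), written 5′ to 3′ on the strand of the gene. Capitals mark AGGTCA, the half-site that nuclear receptors bind, which was searched on both strands.
H2-Q10: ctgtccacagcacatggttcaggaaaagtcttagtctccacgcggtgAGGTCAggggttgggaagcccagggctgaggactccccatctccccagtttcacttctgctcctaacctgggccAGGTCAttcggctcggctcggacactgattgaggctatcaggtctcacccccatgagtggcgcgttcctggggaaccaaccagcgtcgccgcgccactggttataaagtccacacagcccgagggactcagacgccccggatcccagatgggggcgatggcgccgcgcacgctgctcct
Lta: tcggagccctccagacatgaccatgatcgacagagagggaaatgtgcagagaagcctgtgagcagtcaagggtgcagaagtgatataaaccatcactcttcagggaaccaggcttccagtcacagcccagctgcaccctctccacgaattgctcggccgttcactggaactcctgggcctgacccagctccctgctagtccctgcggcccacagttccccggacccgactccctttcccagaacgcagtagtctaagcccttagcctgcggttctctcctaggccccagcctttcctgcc
Ltb: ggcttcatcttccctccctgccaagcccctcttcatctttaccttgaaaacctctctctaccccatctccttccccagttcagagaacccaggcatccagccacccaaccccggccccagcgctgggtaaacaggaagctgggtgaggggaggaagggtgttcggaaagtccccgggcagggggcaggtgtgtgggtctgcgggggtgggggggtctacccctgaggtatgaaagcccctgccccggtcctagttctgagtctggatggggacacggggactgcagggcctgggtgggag
The H2-Q10 window lies at chr17:35469839-35470138 on the plus strand, the Lta window at chr17:35205302-35205601 on the minus strand and the Ltb window at chr17:35194257-35194556 on the plus strand. AGGTCA occurred 2 times in the H2-Q10 window, 203 and 129 bases before the start and both on the gene's own strand, and 0 times in the Lta and Ltb windows. Of the 32851 promoters of that length in the table, 5340 (16.3%) held it on either strand. A match is only a run of letters, and its absence says only that these letters are not in the window.

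H2-Q10 (ENSMUSG00000067235, chromosome 17, 35470089 to 35474563, mm10) encodes a class I protein of the Q series that the liver is known to secrete into blood. It was at 67.8, 77.9 and 64.9 CPM in KO BPA testes, against 2.09, 1.805 and 1.67 CPM in KO vehicle testes. It was at 70.2, 61.8, 79.8 and 53.7 CPM in WT BPA testes, against 81.9, 89.6, 46.3 and 70.3 CPM in WT vehicle testes. The 3 KO vehicle animals were low, the KO groups did not overlap, and the 3 KO BPA animals lay inside the WT range. The interaction was 5.35 ± 0.774 (SE, log2, adjusted p = 0.0106), made of a difference of 5.24 in KO (adjusted p = 0.00137) and -0.12 in WT (adjusted p = 0.920). H2-Q10 has near-identical copies among the class I genes, so the gene its reads came from is uncertain. In KO stigmasterol testes (T10, T15 and T93) the gene was at 2.16, 34.7 and 40.8 CPM, so T10 was near the KO vehicle animals and T15 and T93 lay between the KO vehicle and KO BPA animals.

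Lta (ENSMUSG00000024402, chromosome 17, 35203165 to 35205351) encodes lymphotoxin alpha, a cytokine of the TNF family made mainly by lymphocytes. It was at 0.206, 0.134 and 0.123 CPM in KO BPA testes, or 9, 6 and 5 reads, against 1.26, 1.32 and 1.65 CPM in KO vehicle testes. WT BPA testes had 0.371, 0.453, 0.412 and 0.307 CPM, against 0.0878, 0.200, 0.358 and 0.266 CPM in WT vehicle testes. KO vehicle animals were the high ones, and KO BPA animals lay within the WT vehicle range and below the WT BPA range. The interaction was -3.92 ± 0.502 (adjusted p = 0.00532), with -3.17 in KO (adjusted p = 0.0011) and 0.75 in WT (unadjusted p = 0.0342, adjusted p = 0.224). KO stigmasterol testes (T10, T15 and T93) had 1.45, 1.06 and 0.906 CPM, all above every KO BPA and WT animal.

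Ltb (ENSMUSG00000024399, chromosome 17, 35194439 to 35196320) encodes lymphotoxin beta, the membrane partner that holds lymphotoxin alpha at the cell surface, where the complex acts through the lymphotoxin beta receptor. It was at 0.845, 1.07 and 0.836 CPM in KO BPA testes, against 4.80, 3.84 and 4.41 CPM in KO vehicle testes. In WT BPA testes it was at 1.06, 1.02, 0.955 and 0.833 CPM, against 0.987, 0.702, 0.670 and 1.38 CPM in WT vehicle testes. KO vehicle animals were again the high ones, and KO BPA animals fell inside the WT range. The interaction was -2.29 ± 0.306 (adjusted p = 0.00532), with -2.24 in KO (adjusted p = 0.000246) and 0.05 in WT (adjusted p = 0.922). KO stigmasterol testes (T10, T15 and T93) had 3.09, 2.14 and 2.69 CPM, between the KO BPA and KO vehicle animals. The BPA and stigmasterol values in KO are set against the same 3 vehicle animals.

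**Figure D1:**
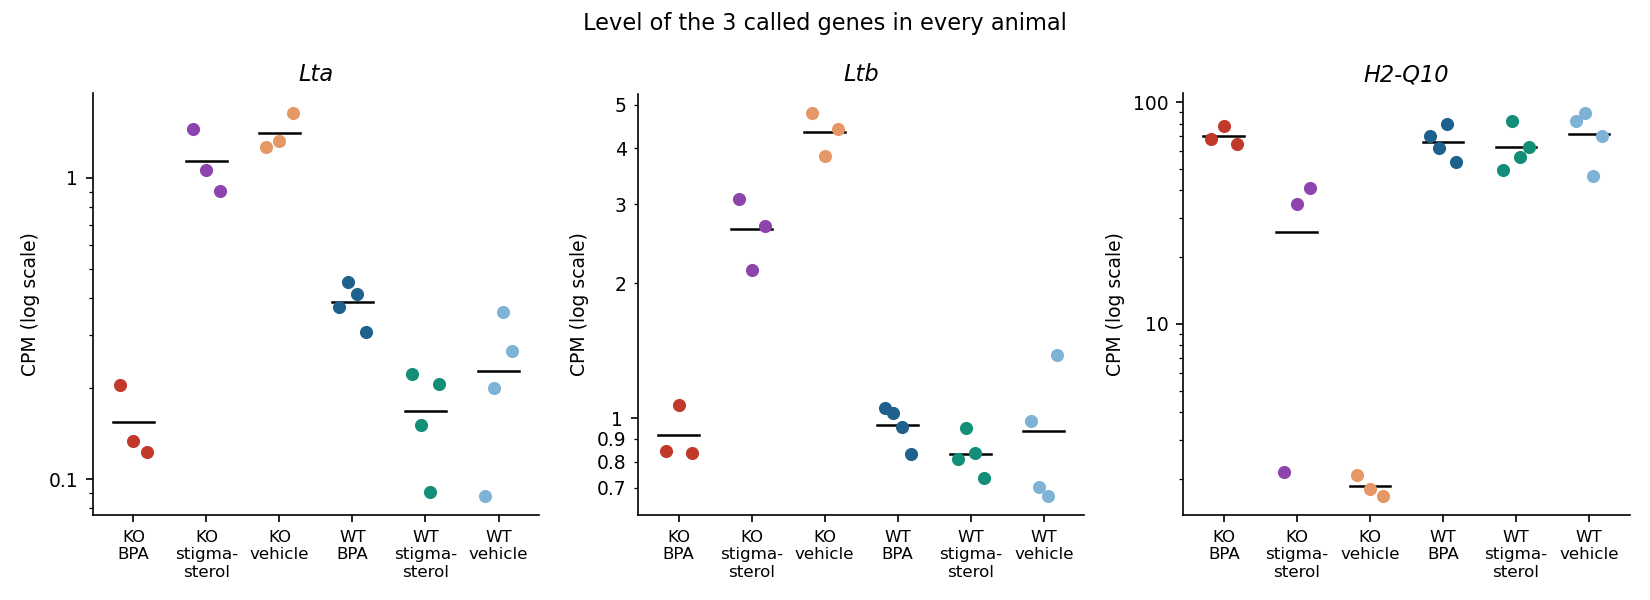
CPM after TMM scaling (log axis) of Lta, Ltb and H2-Q10 in every animal of the 6 groups, with a point per animal and a line at the group mean. The 3 KO vehicle animals are low for H2-Q10 (1.67 to 2.09 CPM), as is KO stigmasterol animal T10 (2.16 CPM). For Ltb the KO vehicle animals are the high ones (3.84 to 4.80 CPM), and KO BPA animals lie with the WT animals.

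With 1 animal left out in turn, Lta and Ltb were called in 14 of 14 fits (highest adjusted p 0.0252 and 0.0303). H2-Q10 was called in 11 of 14 and lost its call without KO vehicle animal T1 (adjusted p = 0.0847), T90 (0.108) or T110 (0.0993), with an interaction of 5.31 to 5.45 in those 3 fits. Without the 3 libraries with Alb at 10 CPM or more (KO BPA T25 and WT BPA T75 and T61) 0 genes were called by edgeR (1573 had an unadjusted p under 0.05), and the values were 5.50 for H2-Q10, -3.98 for Lta and -2.19 for Ltb (adjusted p 0.233, 0.205 and 0.233). When every library with Cdh16 at 10 CPM or above was dropped, 1 KO BPA and 1 KO vehicle animal remained, and each was assumed to vary like the other groups, so calls kept or lost there say little. There the interaction was 5.35 for H2-Q10, -3.40 for Lta and -2.36 for Ltb.

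The authors' deposited table lists log2 fold changes of BPA against vehicle of 5.24 in KO and -0.12 in WT for H2-Q10, -3.19 and 0.76 for Lta, and -2.24 and 0.05 for Ltb. An adjusted p under 0.05 was given to 18 genes for BPA in KO, and to 965 in WT, in the authors' deposited table. It holds no test of the interaction.

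The rest of the H2 region was then described around the called genes. Within 1 Mb on either side of them (chromosome 17, 34194439 to 36474563) 130 genes were tested. Of these, 24 (18.5%) had an unadjusted interaction p under 0.05, 13 positive and 11 negative, against 8.83% of all genes tested (1788 genes). For BPA against vehicle within KO, 32 of the 130 (24.6%) had an unadjusted p under 0.05, against 4.31% of all genes (873 genes), and in WT 21 (16.2%), against 18.8%. KO BPA and KO vehicle animals did not overlap for 33 of the 130 (25.4%), against 11.1% of all genes (2255 genes). The window was placed around the called genes, so these shares are a description with no test. Chromosome 17 as a whole had 122 of 967 genes (12.6%) at an unadjusted interaction p under 0.05, the highest share of the chromosomes, and chromosome 13 came next with 77 of 726 (10.6%).

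Neighbours in the region showed the same arrangement of groups without passing the test. Cchcr1, a coiled-coil gene near the class I genes, had 46.1, 40.5 and 41.0 CPM in KO BPA testes, against 32.3, 29.4 and 30.7 CPM in KO vehicle testes. WT BPA animals had 38.5 to 46.4 CPM and WT vehicle animals 37.6 to 48.2 CPM. KO vehicle was the low group and the other 3 overlapped, and the interaction was 0.53 ± 0.117 (adjusted p = 0.536). H2-Eb1, a class II gene of antigen-presenting cells, had 1.76, 2.01 and 1.40 CPM in KO BPA testes, against 0.883, 0.725 and 0.532 CPM in KO vehicle testes. Its WT BPA animals had 1.48 to 2.54 CPM and its WT vehicle animals 1.56 to 2.72 CPM (interaction 1.48 ± 0.367, adjusted p = 0.536).

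The opposite arrangement was seen at other genes of the region. The class I gene H2-D1, which presents peptides on most cells, had 50.1, 38.5 and 39.9 CPM in KO BPA testes, against 134, 84.2 and 81 CPM in KO vehicle testes. WT BPA animals had 27.2 to 37.9 CPM and WT vehicle animals 22.6 to 60.9 CPM (interaction -0.90 ± 0.435, adjusted p = 0.565). Aif1, a marker of macrophages that lies beside the lymphotoxin genes, had 1.94, 2.68 and 1.99 CPM in KO BPA testes, against 5.40, 3.87 and 5.07 CPM in KO vehicle testes. WT BPA animals had 2.01 to 2.95 CPM and WT vehicle animals 2.23 to 3.49 CPM (interaction -0.87 ± 0.319, adjusted p = 0.536). C1qa and C1qb, macrophage genes on another chromosome, had positive interactions of 0.54 ± 0.239 and 0.42 ± 0.195 (adjusted p 0.554 and 0.563). The summed level of the macrophage list, of which 17 genes including Aif1 were tested, was 153.1 to 216.2 CPM in KO BPA and 161.9 to 200 CPM in KO vehicle animals, and overlapped. No list of lymphocyte genes was used, and the part of cell numbers in the values of Lta, Ltb and Aif1 was not tested.

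Positions of single animals were read over 23 genes of the window, chosen on the KO groups alone: unadjusted p under 0.05 for BPA in KO, no overlap between the KO groups and 1 CPM or more as the mean of any of the 4 groups. Each gene's log2 CPM was scaled so that the KO vehicle mean was 0 and the KO BPA mean was 1, which fixes the positions of those 6 animals. WT BPA animals had median positions of 0.978 to 1.13 and WT vehicle animals of 0.887 to 1.18, so WT animals of both treatments lay at the KO BPA level. WT stigmasterol animals had 0.851 to 1.07. KO stigmasterol testes (T10, T15 and T93) had 0.0418, 0.441 and 0.734, with 1, 10 and 13 of the 23 genes nearer to KO BPA than to KO vehicle. Single genes in WT animals lay between -0.7004 and 2.8698. Because the genes were chosen to separate the KO groups, the positions are a description, and the genotype of each animal on chromosome 17 was not tested.

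**Figure D2:**
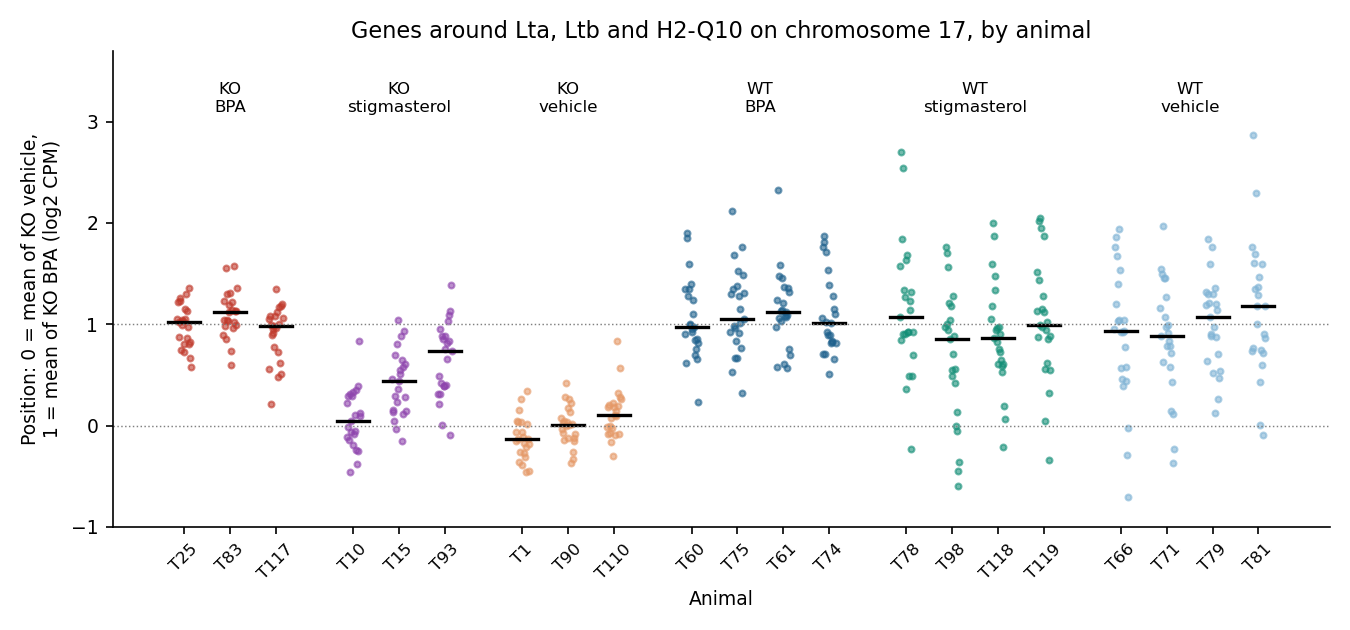
Position of each animal (vertical axis, animals along the horizontal axis) at 23 genes within 1 Mb of Lta, Ltb and H2-Q10, where 0 is the mean of KO vehicle and 1 the mean of KO BPA on the log2 CPM scale (points, genes; lines, medians). KO stigmasterol animals have medians of 0.0418, 0.441 and 0.734, and the WT animals of 0.851 to 1.18.

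Across all genes the interaction was centred near 0, with a median of -0.005, and the medians of the BPA difference were 0.0009 in KO and 0.0122 in WT. An unadjusted p under 0.05 was reached by 983 genes with a positive interaction (4.85%) and 805 with a negative one (3.97%). The sign of the BPA difference was opposite in the genotypes for 1565 of these 1788 (87.5%), against 9066 of all 20254 (44.8%), and choosing genes on the interaction favours opposite signs. KO was higher and WT lower under BPA at 844 of them (47.2%), against 21.4% of all genes tested. The reverse held at 721 (40.3%), against 23.3%. The sign was shared at the others, with the larger difference in KO at 32 (1.79%) and in WT at 191 (10.7%). Over all genes tested those shares were 24.1% and 31.2%. The median absolute difference of the 1788 was 0.13 in KO and 0.28 in WT (log2), against 0.127 and 0.161 over all genes tested, where WT was the larger as well. WT BPA and WT vehicle animals did not overlap for 1640 of all genes (8.1%).

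**Figure D3:**
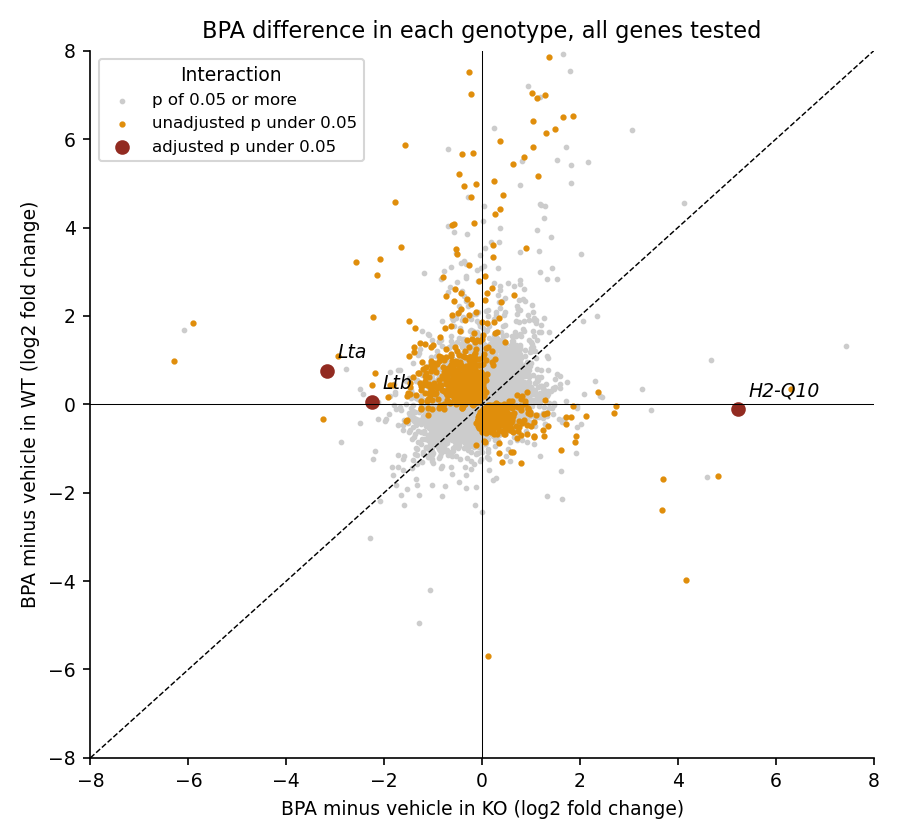
Log2 fold change of BPA over vehicle in KO (horizontal) and in WT (vertical) for the genes tested, coloured by the interaction p, with 2 genes outside the plotted range. The dashed diagonal marks equal differences in both genotypes, and the 3 called genes lie near the horizontal axis, with WT differences of -0.12, 0.75 and 0.05.

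Genes with the smallest p outside the called ones were named by rule and are given as values, since none passed (adjusted p = 0.536 for each). Ifi35, an interferon-induced gene on chromosome 11, had 13.3, 16.6 and 15.9 CPM in KO BPA testes, against 12.1, 12.0 and 13.6 CPM in KO vehicle testes. In WT BPA testes it had 13.1, 12.2, 12.5 and 10.7 CPM, against 16.7, 15.8, 14.9 and 16.5 CPM in WT vehicle testes. The WT groups did not overlap, the KO groups did by 1 animal, and the signs were opposite (interaction 0.68 ± 0.144). WT stigmasterol testes had 12.9, 11.4, 10.5 and 13.3 CPM of Ifi35, all below every WT vehicle animal. Ring1, a Polycomb subunit on chromosome 17, averaged 44.9 ± 3.07 CPM in KO BPA and 34.7 ± 0.647 CPM in KO vehicle animals (SD, n = 3 each), and 42.2 ± 3.61 CPM in WT BPA and 49.5 ± 4.82 CPM in WT vehicle animals (SD, n = 4 each). Its interaction was 0.60 ± 0.142.

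Hint1, Tomm5, Cox7c and Rpl31 had the larger difference in WT. Hint1, a nucleotide hydrolase, averaged 130 ± 9.41 CPM in KO BPA and 127.2 ± 4.38 CPM in KO vehicle animals (SD, n = 3 each), and 118.9 ± 8.22 CPM in WT BPA and 149.7 ± 4.74 CPM in WT vehicle animals (SD, n = 4 each), with no overlap in WT (interaction 0.36 ± 0.0881). Tomm5, a subunit of the mitochondrial import pore, averaged 20.9 ± 0.482 CPM in KO BPA and 18.6 ± 0.714 CPM in KO vehicle animals, and 17.8 ± 1.38 CPM in WT BPA and 24.2 ± 2.69 CPM in WT vehicle animals, with no overlap in either genotype (0.62 ± 0.145). The cytochrome oxidase subunit Cox7c (0.36 ± 0.0864) and the ribosomal protein gene Rpl31 (0.32 ± 0.0751) had the same arrangement, with differences of 0.08 and 0.07 in KO and of -0.28 and -0.25 in WT. Elovl3, a fatty acid elongase with the larger difference in KO, was low and had 1.45 ± 0.436 CPM in KO BPA and 0.776 ± 0.155 CPM in KO vehicle animals, and 0.833 ± 0.0919 CPM in WT BPA and 1.34 ± 0.498 CPM in WT vehicle animals (1.59 ± 0.386).

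On the negative side Utf1, a chromatin factor of undifferentiated spermatogonia, had 3.75, 3.06 and 2.73 CPM in KO BPA testes, against 8.51, 6.24 and 5.12 CPM in KO vehicle testes. In WT BPA animals it had 2.29 to 4.07 CPM, against 2.02 to 3.03 CPM in WT vehicle animals, so KO vehicle was the high group (-1.28 ± 0.344). Qrfp, which encodes a neuropeptide, had opposite signs with no overlap in either genotype: 4.38 ± 0.728 CPM in KO BPA and 5.81 ± 0.177 CPM in KO vehicle animals, and 5.34 ± 0.52 CPM in WT BPA and 3.82 ± 0.722 CPM in WT vehicle animals (-0.89 ± 0.216). Mgst2, a microsomal glutathione transferase, did so too, with 0.463 ± 0.0833 CPM in KO BPA and 0.701 ± 0.115 CPM in KO vehicle animals, and 1.35 ± 0.235 CPM in WT BPA and 0.916 ± 0.112 CPM in WT vehicle animals (-1.15 ± 0.279). The teneurin Tenm2 (-1.19 ± 0.294), the acid phosphatase gene Acpt (-1.51 ± 0.401), Arhgap32 (-0.43 ± 0.118), the TNF receptor family gene Tnfrsf22 (-0.40 ± 0.113) and the polarity gene Crb2 (-0.84 ± 0.239) completed the rule, each with opposite signs in the genotypes.

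Of the 17 FXR and bile acid genes tested, 0 were called by edgeR and 0 had an unadjusted p under 0.05, against 8.83% of all genes tested, so the count says little about so short a list. A positive interaction was seen at 5 of them. The counts of the lists that follow stand against the same 8.83%, made of 4.85% positive and 3.97% negative. Nr0b2, the corepressor SHP that FXR induces, came nearest with 0.84 ± 0.405 (edgeR adjusted p = 0.565), from a difference of 0.55 in KO and -0.30 in WT. The bile acid exporter subunits Slc51a and Slc51b were at -0.51 ± 0.608 and 0.30 ± 0.414, and Cyp7a1, the rate-limiting enzyme of bile acid synthesis, was at -0.70 ± 0.522. Their errors were as large as or close to the values. The summed level of the list was 249.4 to 288.9 CPM in KO BPA and 226.4 to 269.8 CPM in KO vehicle animals, and 241.9 to 368.6 CPM in WT BPA and 204.9 to 286.8 CPM in WT vehicle animals.

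Estrogen receptors and response genes, the other candidate route of BPA, had 0 of 16 called and 1 at an unadjusted p under 0.05. That gene was Xbp1, a transcription factor of the unfolded protein response, with 87.1 ± 16 CPM in KO BPA and 72.2 ± 3.72 CPM in KO vehicle animals, and 73.9 ± 2.67 CPM in WT BPA and 83.1 ± 10.1 CPM in WT vehicle animals (0.44 ± 0.154, adjusted p = 0.536). The estrogen receptor gene Esr1 had an interaction of 0.00 ± 0.264 and Esr2 of 0.68 ± 0.477. Of 18 genes of xenobiotic sensing and BPA handling, Ahr, the dioxin receptor, was negative at an unadjusted p under 0.05. It had 17.8 ± 1.17 CPM in KO BPA and 16.9 ± 1.8 CPM in KO vehicle animals, and 20 ± 2.19 CPM in WT BPA and 13.7 ± 2.4 CPM in WT vehicle animals (-0.48 ± 0.198, adjusted p = 0.541). Cyp3a11, a liver drug-metabolizing enzyme, was the other, at 0.279 ± 0.202 CPM in KO BPA and 0.135 ± 0.162 CPM in KO vehicle animals, and 1.24 ± 2.3 CPM in WT BPA and 0.011 ± 0.0219 CPM in WT vehicle animals. The liver list was high in WT BPA animals T61 and T75 and was at 9.709 and 20.02 CPM in the other 2, and its part in the value of Cyp3a11 was not tested.

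The gene lists by cell type and process held 1 called gene among them, H2-Q10 of the 25 MHC genes tested. That list had 3 positive and 2 negative genes at an unadjusted p under 0.05, and a median interaction of -0.03. Besides H2-Q10 and H2-Eb1 these were H2-T22 (0.80 ± 0.379), H2-T10 (-2.09 ± 0.671) and H2-Q1 (-1.17 ± 0.557), with adjusted p from 0.536 to 0.563. Of 28 interferon-induced genes 20 were positive, and 3 had an unadjusted p under 0.05, all positive: Ifi27 (0.56 ± 0.17), Bst2 (0.37 ± 0.159) and Stat2 (0.21 ± 0.095). Of all genes tested, 4.85% passed in that direction and 8.83% in both. Among 18 heat shock genes Hspa1a, an inducible chaperone inside the H2 region, and Hspe1 were positive at an unadjusted p under 0.05, and 15 were positive in all. Hspa1a had 10.3, 10.4 and 9.81 CPM in KO BPA testes, against 6.04, 8.01 and 6.29 CPM in KO vehicle testes. Its WT BPA animals had 8.87 to 11.7 CPM and its WT vehicle animals 10.5 to 17.4 CPM (0.99 ± 0.253, adjusted p = 0.536), and its sequence is close to that of Hspa1b.

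Immediate early genes, which cells switch on soon after a stimulus, leaned one way, and all 23 tested had a positive interaction, with a median of 0.23 (0.19 in KO and 0.02 in WT). Of these, 5 had an unadjusted p under 0.05 (Ier2, Klf6, Klf2, Cyr61 and Nr4a1), against 4.85% of all genes in that direction, and 0 were called. Cyr61, a matricellular gene, had 17.9 ± 2.16 CPM in KO BPA and 10.1 ± 1.25 CPM in KO vehicle animals, with no overlap, and 18.8 ± 1.17 CPM in WT BPA and 16.4 ± 5.01 CPM in WT vehicle animals (0.63 ± 0.268, adjusted p = 0.554). Ier2 differed mainly in WT, with 33.5 ± 3.35 CPM in KO BPA and 32 ± 2.55 CPM in KO vehicle animals, and 29.3 ± 3.72 CPM in WT BPA and 38.6 ± 2.9 CPM in WT vehicle animals (0.46 ± 0.159, adjusted p = 0.536). The summed level of the list was 727.5, 881.2 and 823.6 CPM in KO BPA testes, and 639.6, 707.4 and 716.5 CPM in KO vehicle testes. When every library with Cdh16 at 10 CPM or above was dropped, 12 of the 23 were positive and 0 had an unadjusted p under 0.05.

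Sertoli cell genes had 29 of 36 positive interactions and a median of 0.30, from medians of 0.00 in KO and -0.32 in WT. The 4 genes at an unadjusted p under 0.05 were Rhox8, Aard, Fabp3 and Ctsl, all positive, and 0 were called. Of all genes tested, 4.85% passed that threshold in that direction and 8.83% in both. Ctsl, a protease that Sertoli cells make in quantity, had 1053 ± 51.5 CPM in KO BPA and 1049 ± 111 CPM in KO vehicle animals, and 1063 ± 70.5 CPM in WT BPA and 1391 ± 283 CPM in WT vehicle animals (0.39 ± 0.176, adjusted p = 0.555). The summed level of the list was 10690 to 11510 CPM in KO BPA and 11080 to 11550 CPM in KO vehicle animals, and 10610 to 12690 CPM in WT BPA and 11160 to 17190 CPM in WT vehicle animals. The highest value was that of WT vehicle animal T81, which also had the lowest sum of meiotic genes.

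In the germ cell lists 0 genes were called. Meiotic prophase genes had little that differed beyond the errors, with 1 gene (H2afx, positive) at an unadjusted p under 0.05. The list of undifferentiated spermatogonia had 5 of 25 genes positive and a median interaction of -0.14. Of 34 meiotic prophase genes, 6 were positive and the median interaction was -0.30, with medians of -0.53 in KO and -0.29 in WT. The errors of single genes were wide, as for the synaptonemal complex gene Sycp3 (-0.27 ± 0.756) and the recombinase gene Dmc1 (-0.40 ± 0.83). The list summed to 2813, 1802 and 1453 CPM in KO BPA testes, and 3620, 2785 and 2208 CPM in KO vehicle testes. It summed to 2179, 1755, 1657 and 2101 CPM in WT BPA testes, and 3028, 2423, 1690 and 1119 CPM in WT vehicle testes. The BPA and vehicle groups overlapped within each genotype, and the WT vehicle animals alone spanned most of the range. Among 25 genes of undifferentiated spermatogonia, Utf1, Pou5f1 (-0.69 ± 0.267), a pluripotency factor that itself lies in the H2 window, and Sohlh2 (-0.41 ± 0.19) were negative at an unadjusted p under 0.05, and Kit, the receptor of differentiating spermatogonia, was at -0.39 ± 0.137 (adjusted p = 0.536). Of 23 DNA methylation and piRNA genes 2 were positive, with a median of -0.24, and Tdrd7 was the member at an unadjusted p under 0.05 (-0.36 ± 0.144).

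Housekeeping machinery was added as 3 lists after the values were seen, so its direction is a description. Of 79 nuclear genes for oxidative phosphorylation (OXPHOS), which encode subunits of the respiratory chain and the ATP synthase, 78 had a positive interaction and 44 of them an unadjusted p under 0.05, against 4.85% of all genes. Their median was 0.28, from 0.01 in KO and -0.25 in WT. Of 76 cytosolic ribosomal protein genes 76 were positive, 42 of them at an unadjusted p under 0.05, with medians of 0.22 for the interaction, 0.04 in KO and -0.19 in WT. Of 39 proteasome subunit genes 33 were positive and 13 had an unadjusted p under 0.05, with a median of 0.13. In these 3 lists 0 genes were called. The median over all genes was -0.005 with TMM scaling and 0.0005 with RLE scaling, and the list medians were 0.28, 0.22 and 0.13 under RLE as well.

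The OXPHOS sum was 7595, 7412 and 7423 CPM in KO BPA testes, and 7121, 7705 and 7567 CPM in KO vehicle testes. It was 7269, 6620, 6870 and 6856 CPM in WT BPA testes, and 8132, 8230, 7433 and 7826 CPM in WT vehicle testes. The WT groups did not overlap, and the KO groups did. The ribosomal sum was 21200 to 21700 CPM in KO BPA and 20210 to 21860 CPM in KO vehicle animals, and 19850 to 21900 CPM in WT BPA and 22940 to 24640 CPM in WT vehicle animals. WT stigmasterol animals also lay below every WT vehicle animal, with a ribosomal sum of 18510 to 21060 CPM, so WT vehicle was the WT group that stood apart. KO stigmasterol animals had a ribosomal sum of 21440 to 24240 CPM (median 23920), so the WT vehicle level was reached in that group too. The OXPHOS sum of WT stigmasterol animals was 6993 to 7685 CPM and overlapped that of WT vehicle animals. Rpl31 was at 131.4 to 146.8 CPM in WT BPA, 124.7 to 135.1 CPM in WT stigmasterol and 160.8 to 168.2 CPM in WT vehicle animals. Single genes had small differences, such as Ndufa4 with 91.5 ± 1.97 CPM in KO BPA and 85.6 ± 0.563 CPM in KO vehicle animals, and 79.8 ± 5.82 CPM in WT BPA and 97.5 ± 7.62 CPM in WT vehicle animals (0.38 ± 0.105, adjusted p = 0.536). Ribosomal protein genes have many processed copies, and their reads can be shared. The 14 mitochondrially encoded genes tested did not lean this way, with 8 positive and a median of 0.03.

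With libraries left out these counts moved while the medians kept their sign. Leaving out each of the 14 animals in turn gave 33 to 52 OXPHOS genes (33 without KO BPA animal T25) and 30 to 50 ribosomal genes (30 without KO vehicle animal T1) at an unadjusted p under 0.05. Proteasome genes ran from 7 without KO vehicle animal T1, and 8 without WT BPA animal T75, to 17. Without the libraries with Alb at 10 CPM or more the counts were 23 OXPHOS, 16 ribosomal and 5 proteasome genes, with medians of 0.23, 0.20 and 0.09. Without those with Cdh16 at 10 CPM or more they were 5, 5 and 0, with medians of 0.31, 0.23 and 0.15. Sertoli genes ran from 1 (without KO vehicle animal T1 or WT vehicle animal T81) to 8 (without KO BPA animal T25, WT BPA animal T61 or WT vehicle animal T66). Without the Cdh16 libraries 0 Sertoli genes were positive at that threshold and 1 was negative, 21 of 36 were positive and the median was 0.05, against 0.30 with all libraries. Immediate early genes ran from 2 (without KO BPA animal T83) to 7 (without KO BPA animal T25), and numbered 3 without KO vehicle animal T1, WT BPA animal T74 or WT vehicle animal T79 or T81. Their median was 0.08 without T83, against 0.23 with all libraries.

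**Figure D4:**
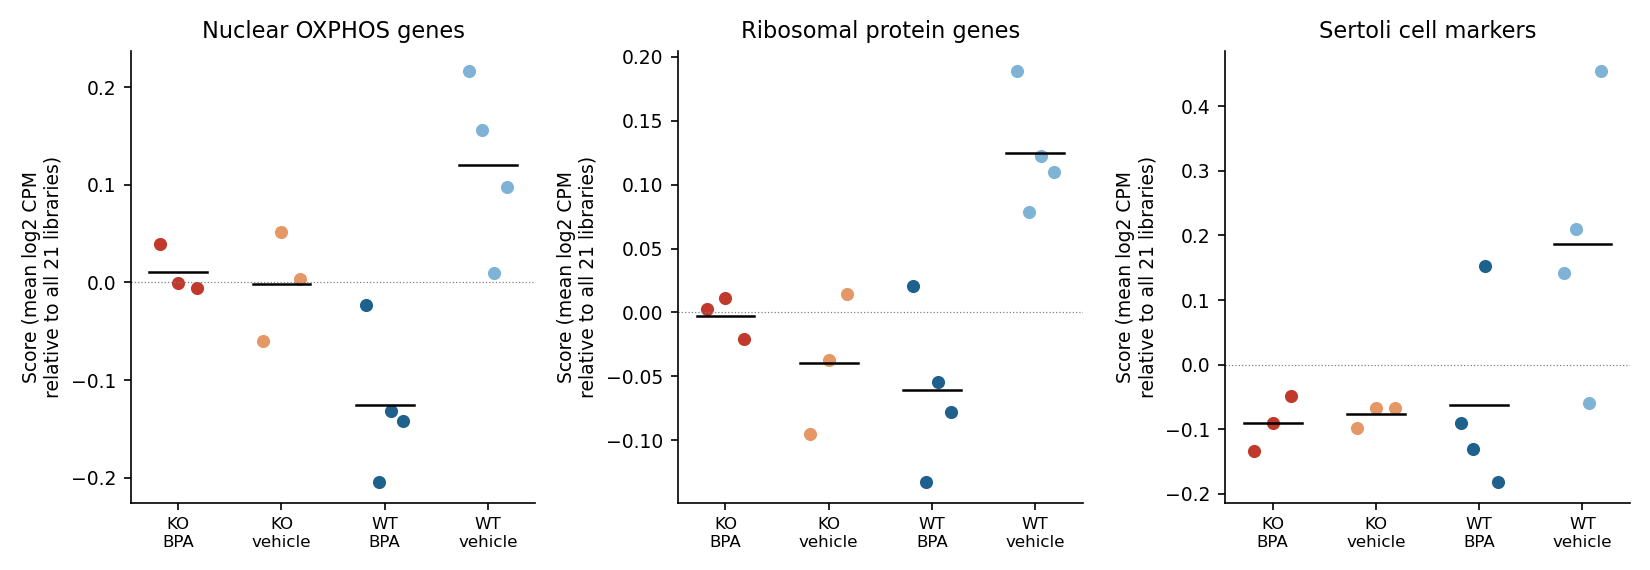
Score of 3 gene lists in each of the 14 animals (the mean over genes of log2 CPM relative to all 21 libraries), with a line at each group mean. The 4 groups of the comparison are drawn. WT vehicle animals have the highest mean in the OXPHOS and ribosomal panels and WT BPA animals the lowest of these 4, while the KO groups overlap; in the Sertoli panel WT vehicle animal T81 is the highest.

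Transcripts of tissues outside the testis had the largest medians of all lists. Of 14 liver genes 12 were negative at an unadjusted p under 0.05, with a median interaction of -4.73 and 0 called. Alb, the main plasma protein of liver, averaged 9.1 ± 8.49 CPM in KO BPA and 3.72 ± 3.46 CPM in KO vehicle animals, and 160.4 ± 280 CPM in WT BPA and 1.25 ± 0.812 CPM in WT vehicle animals. It reached 577.9 CPM in WT BPA animal T61, which alone set most of that mean. Of 19 epididymal genes 0 were positive, with a median of -1.64. That list summed to 148.1, 217.7 and 394.5 CPM in KO BPA testes, and 542.9, 154.2 and 262.7 CPM in KO vehicle testes, and to 102.5 to 284.8 CPM in WT BPA and 105.7 to 159.1 CPM in WT vehicle animals. Fat markers summed to 247.1 CPM in KO BPA animal T117. Their part in the other results was not tested beyond the fits that left libraries out.

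**Figure D5:**
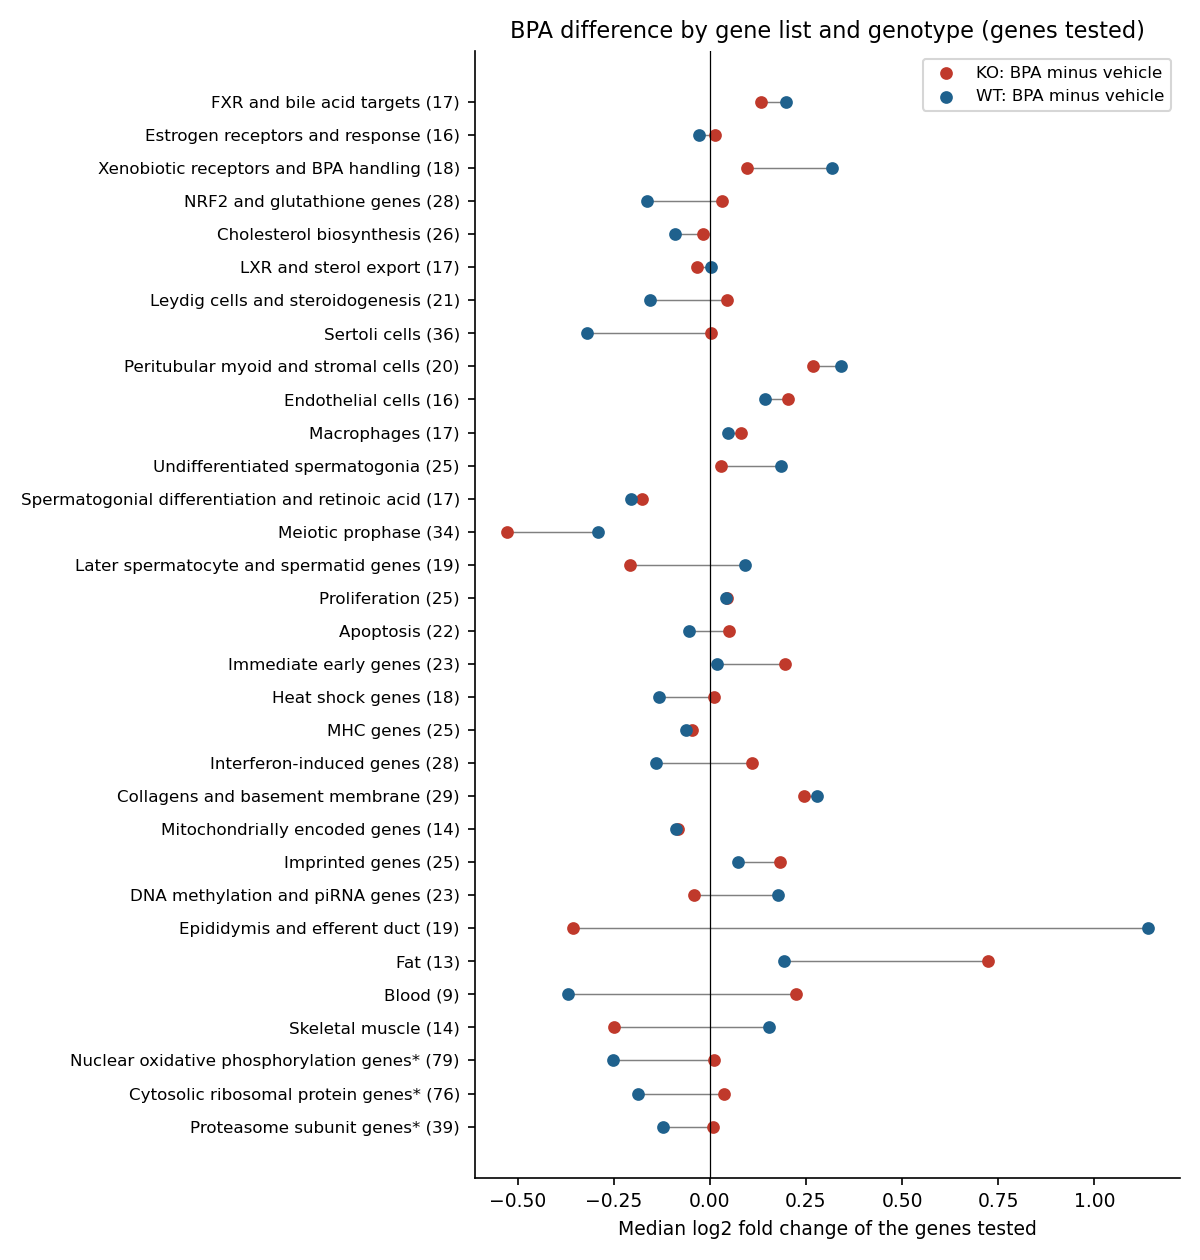
Median log2 fold change of BPA over vehicle in KO (red) and WT (blue) for each gene list except liver, with the number of genes tested in parentheses and an asterisk on the lists added after the values were seen. The epididymal list has the widest gap (-0.35 in KO and 1.14 in WT), and the OXPHOS and ribosomal lists lie near 0 in KO and below 0 in WT.

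The remaining lists had few members past the unadjusted threshold. Among 28 NRF2 and glutathione genes, Gpx4, a peroxidase that protects membranes, Gpx1 and Gstm6 were positive, and Gclc and Gsr were negative. Gpx4 had 136.8 ± 4.46 CPM in KO BPA and 134 ± 13 CPM in KO vehicle animals, and 113.4 ± 4.17 CPM in WT BPA and 140.9 ± 6.54 CPM in WT vehicle animals (0.34 ± 0.1, adjusted p = 0.536). Of 26 cholesterol biosynthesis genes Pmvk was positive and Lpin1 negative, and of 17 LXR and sterol export genes Npc1l1 was negative. Of 21 Leydig cell genes, whose products make testosterone, 17 were positive with a median of 0.23, and Cyb5a (0.34 ± 0.149) and Nr4a1 (0.59 ± 0.263) were the members past the unadjusted threshold. The 20 peritubular, 16 endothelial and 29 collagen and basement membrane genes had 0 members past it, with medians of -0.08, 0.05 and -0.04, and BPA medians that were positive in both genotypes.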

How the data were processed

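RNA-seq libraries of 21 mouse testes were deposited as raw read counts, 1 per Ensembl gene, which the authors made per the file headers. Reads were aligned to mm10, and the tools listed are TopHat2 2.0.10, Bowtie2 2.1.0, Bowtie and CASAVA 1.8.2, per the submitters' processing notes. Neither the read counter nor the annotation release is named in the sources used here. The labels do not say that counting used strand, so a gene and an antisense partner cannot be told apart. Log2 fold changes and p-values of BPA against vehicle within each genotype were deposited too, by a test that is not given. The deposited normalized signal, also divided by gene length, was not used.

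The counts were tested with edgeR 4.0.16 in R 4.3.3: TMM, filterByExpr (minimum count 10, minimum total 15), 1 mean per group over all 21 libraries, and Benjamini-Hochberg adjustment over all genes at 0.05, two-sided. SE is the absolute log2 fold change over the root of its F statistic. The biological coefficient of variation was 19.2%, and 564 genes had no read. The 18 replicate pairs had a chi-square per degree of freedom of 9.5 to 68.4, more than counting error alone gives. Pairs of WT vehicle animals had 40.2 to 68.4 and pairs within the other groups 9.5 to 39.1, so WT vehicle animals were the least alike. Litters are not given, so p-values measure the spread between these animals. Alternatives used DESeq2 1.42.0, limma 3.58.1 voom, RLE scaling, other filters, covariates and left-out libraries. Procedures were tested on simulated data. A prior count of 2 was used for log2 CPM scores.

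Named genes were the called ones with a conventional symbol and at least 1 CPM in 1 group, filled by smallest p to 10 in each direction, with called list members and Nr1h4. List members at an unadjusted p under 0.05 and genes of the H2 region were added after their values were seen. The comparison, the 30 lists and the rules were chosen with earlier results of these data known, and 3 lists after the values were seen. Floors (3 counts) cover counting error only.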

Additional observations from a re-analysis of the deposited data

Results flagged for a closer look

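Lta, Ltb and H2-Q10 were marked because the BPA minus vehicle difference was not the same in KO and WT testes by the test of that difference itself. Their interactions were -3.92, -2.29 and 5.35 (log2), and in each the KO vehicle animals stood apart among the 4 groups compared. The strain of origin of chromosome 17 in these animals was not tested, so its part in the calls cannot be told apart from that of BPA.

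In 108 checks for a lone animal in a WT group of 4 (named genes and list sums), 2 stood out. That is a smaller share than the 1 in 20 or so that chance gives. Both were WT BPA animal T61. Its liver sum was 1167 CPM, against 9.709 to 123.9 CPM in the other WT BPA animals. Its sum of mitochondrially encoded genes was 18900 CPM, against 17430 to 17590 CPM in the other WT BPA animals.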

How the results depend on the processing

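The interaction count of 3 genes was 2 or 3 under RLE scaling, no filter, a stricter filter, limma-voom, the 14 libraries alone, both covariates and the fold threshold. Without the Cdh16 libraries 1 KO BPA and 1 KO vehicle animal remained, so a count of calls from that fit is not set beside these. It was 8 with DESeq2, of which 3 were the genes called above and the others Cchcr1, Ifi35, BC051226, Gm4134 and Hoxd12, and 0 without the Alb libraries, where 1573 genes had an unadjusted p under 0.05 (these genes were named after their values were seen). With 1 animal left out it ran from 2 to 5, the highest without KO BPA animal T117. The KO count of 3 became 12 with DESeq2 and 7 without the Cdh16 libraries, where 1 of the genes called above was still called, and ran from 3 to 12 with 1 animal left out, the highest without T117. The WT count of 0 became 1040 with DESeq2 and 1207 with the meiotic score as covariate, and ran from 0 to 1321 with 1 animal left out (1321 without WT vehicle animal T79, 279 without WT BPA animal T60, 15 without T74). The cause of these moves was not tested. Nr1h4, which was not called, ran from -0.0384 (without KO BPA animal T83) to 0.6638 with 1 animal left out. H2-Q10 lost its call in limma-voom (5.32, adjusted p = 0.228), and Ltb with the 14 libraries alone (-2.29, adjusted p = 0.0531). Ifi35 and Cchcr1 passed in DESeq2 (adjusted p 0.00669 and 0.0174). Depth limits Lta, which had 5 to 9 reads in KO BPA animals.

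No paired analysis was possible because the animal numbers in the labels are unique to each animal and no number is shared between groups.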
